A study of Mus musculus with 10 samples.

Results

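This report concerns 10 mouse genes that encode or mark negative feedback on the ERK branch of MAP kinase signalling: the dual-specificity phosphatases Dusp1, Dusp2, Dusp5, Dusp6 and Dusp10, the Sprouty genes Spry1 and Spry2, their relatives Spred1 and Spred2, and the ETS factor gene Etv5. Members were taken by symbol: each probe set that the array annotation gives that gene alone was included, which made 25 probe sets among 45037 and 10 genes among the 18193 with an own probe set. The cells were murine Mll-AF9 leukaemia cells, numbered 4166, in which a fusion of Mll to AF9 drives the growth of myeloid progenitors. In 1 group of arrays (n = 5) the cells carried a lentiviral short hairpin RNA (shRNA) against Meis1, a TALE homeodomain factor that works with Hoxa9, and in the control group (n = 5) they carried the same kind of virus as vector alone. All cells were selected with puromycin, collected at 48 h and kept in IMDM that held 2 ng/ml interleukin 3 and 15% serum (FBS), so each group received a growth factor that feeds the Ras-ERK pathway. The labels pair the arrays by sample number. They name 1 cell line, 1 hairpin construct and a vector with no hairpin, so effects of loss of Meis1 and effects of the hairpin itself cannot be told apart. Whether samples of 1 group were separate cultures is not stated, so p-values cover only sample-to-sample spread, which may be technical.

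In the ERK cascade, receptors load Ras with GTP, Ras activates RAF kinases, and RAF passes the signal through MEK to ERK. ERK then switches on genes whose products shut the cascade down again. The DUSP phosphatases take phosphate off MAP kinases: Dusp6 acts in the cytoplasm and prefers ERK, Dusp5 acts on ERK in the nucleus, Dusp2 is a nuclear phosphatase of blood cells, and Dusp1 and Dusp10 act largely on p38 and JNK. Sprouty and Spred proteins act upstream, at the level of Ras and RAF. Spred1 and Spred2 bring neurofibromin, the Ras GTPase activator encoded by Nf1, to the membrane, and in humans SPRED1 is mutated in Legius syndrome and has been described as a tumour suppressor in leukaemia. Etv5 is an ETS transcription factor whose transcript serves as a readout of ERK output.

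The members' upstream sequences show which letters stand before the genes that the values below compare. Each line holds the 250 bases before a RefSeq transcript start (assembly GRCm38.p6), 5′ to 3′ on the gene's strand, and all 10 genes matched that table with 11 windows, since Etv5 has more than 1 start. Capitals mark 3 motifs searched on both strands: TGACAG, a core bound by MEIS proteins; TGACGT, the core of the cAMP response element; and CGGAAG, an ETS core. A match on the other strand appears as the reverse complement. The motifs were chosen after values and sequences had been seen. Spred1 is shown because it changed most, Spred2 as its closest relative, Spry1 as the member with a MEIS core, and Dusp1 as the member with the most cAMP response cores.
Spred1, chr2:117120821-117121070, plus strand: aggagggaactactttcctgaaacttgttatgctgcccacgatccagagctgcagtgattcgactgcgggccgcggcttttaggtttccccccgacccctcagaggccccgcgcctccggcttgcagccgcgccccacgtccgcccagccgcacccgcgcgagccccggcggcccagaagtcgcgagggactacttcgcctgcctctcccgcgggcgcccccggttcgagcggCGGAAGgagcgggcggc
Spred2, chr11:19924192-19924441, plus strand: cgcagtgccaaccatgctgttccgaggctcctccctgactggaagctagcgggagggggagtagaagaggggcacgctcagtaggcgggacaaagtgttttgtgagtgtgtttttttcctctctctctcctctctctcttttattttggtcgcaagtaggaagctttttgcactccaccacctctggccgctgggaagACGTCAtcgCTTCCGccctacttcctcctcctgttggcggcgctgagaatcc
Spry1, chr3:37639697-37639946, plus strand: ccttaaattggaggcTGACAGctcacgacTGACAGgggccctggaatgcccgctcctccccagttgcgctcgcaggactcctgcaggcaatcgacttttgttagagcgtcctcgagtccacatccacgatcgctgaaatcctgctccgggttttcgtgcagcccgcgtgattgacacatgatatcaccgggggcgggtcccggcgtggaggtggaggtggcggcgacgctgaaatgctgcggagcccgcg
Dusp1, chr17:26508473-26508722, minus strand: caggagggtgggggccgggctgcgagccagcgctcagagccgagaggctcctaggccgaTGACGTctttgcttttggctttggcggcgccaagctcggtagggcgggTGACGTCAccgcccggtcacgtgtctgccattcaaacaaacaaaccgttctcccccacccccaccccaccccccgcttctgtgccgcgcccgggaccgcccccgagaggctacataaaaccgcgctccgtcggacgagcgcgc
The Spred1 window held 1 ETS core and the Spred2 window 1 ETS core and 1 cAMP response core. The Spry1 window held 2 MEIS cores, and no other member window held that motif. In Dusp1 the cAMP response core matched at 3 places, of which the pair that overlaps forms a palindrome. Across 32851 upstream windows of the same length, the MEIS core stood in 15.9%, the cAMP response core in 6.47% and the ETS core in 13.6%. A match describes letters alone, and neither a match nor its absence shows where Meis1 binds.

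Meis1 itself was lower with the hairpin. The bright Meis1 probe set, 1450992_a_at, averaged an intensity of 165 ± 40.2 with the shRNA and 346 ± 56.3 with the control vector (SD, n = 5 each), a log2 change of -1.09 (SE 0.09, limma adjusted p = 0.000767). The dimmer Meis1 probe sets, 1443260_at and 1459423_at, did not pass (0.09, adjusted p = 0.694, and 0.11, adjusted p = 0.664). All log2 changes are shRNA minus control from a paired fit over all probe sets, and a call means an adjusted p below 0.05. Intensities are linear RMA values. The array medians were 6.24 to 6.7, and the unspiked bacterial Trpn controls read 3.28 to 4.92, which gives the level of background. Of 11 markers of myeloid leukaemia cells, all had a mean log2 level above 5. Markers of other lineages were mostly dim: above that level were 1 of 8 erythroid and megakaryocytic genes (Tfrc), 1 of 9 lymphoid genes (Ighm), 1 of 9 genes of mast cells, basophils and eosinophils (Mcpt8), 2 of 9 genes of macrophages and dendritic cells (Adgre1 and Cd68) and 0 of 8 genes of fibroblasts and endothelium.

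Among the members, Spred1 fell and no other gene passed the test. Of the 25 member probe sets, 5 were called, all lower with the shRNA and all for Spred1, against 2.48% of all 45037 probe sets called and 1.96% called lower. Since the called probe sets report 1 gene, the fairer count is by gene: with each gene read by its brightest probe set, 1 of 10 members was called, against 3.16% of 18193 genes (2.34% lower and 0.813% higher). At this size, that share does not set the members as a group apart. The median log2 change was -0.17 over the members' brightest probe sets and 0.00 over those of all genes.

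Spred1 had 8 probe sets, of which 5 fell and 3 did not pass. The probe set 1460116_s_at read 18.2, 11.6, 25.3, 19.3 and 13.2 in shRNA samples 1 to 5, against 98.6, 92.5, 78.1, 115.6 and 63.3 in control samples 1 to 5. Each shRNA array lay below each control array, with a wide gap between the groups. The level averaged 17.5 ± 5.44 with the shRNA and 89.6 ± 19.9 with the control vector (SD, n = 5 each), which was 5.21-fold lower (log2 change -2.38, SE 0.17, limma adjusted p = 0.000496). Of all 45037 probe sets on the array this one had the largest log2 decrease, ahead of probe sets for Ech1 (-2.27) and Acot13 (-2.15), enzymes of fatty acid and acyl-CoA metabolism. The exact two-sided sign-flip permutation test over the 5 pairs gave p = 0.0625, the smallest that 5 pairs allow.

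The probe set 1452911_at, the eighth largest decrease on the array, was next among those for Spred1. It read 6.87, 8.18, 7.41, 7.59 and 7.14 in shRNA samples 1 to 5 and 24.6, 20.8, 28.9, 46.9 and 17.55 in control samples 1 to 5. With the shRNA it thus lay close to the array medians (6.24 to 6.7) and not far above the Trpn background (3.28 to 4.92), which limits how much further a fall could show. Its log2 change was -1.82 (SE 0.18, limma adjusted p = 0.0018). The probe set 1428777_at fell to 7.27 ± 0.946 with the shRNA, against 15.45 ± 2.36 with the control vector (SD, n = 5 each; log2 change -1.08, SE 0.14, adjusted p = 0.00622). Here too the groups did not overlap.

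The brightest Spred1 probe set, 1423160_at, showed a smaller fall. It read 59.5, 56.2, 50.9, 51.6 and 49.9 in shRNA samples 1 to 5, against 118.2, 106.7, 76.7, 99.3 and 73.8 in control samples 1 to 5. The shRNA arrays were tightly grouped, and the pairs differed mainly through the spread of the controls. The change was -0.80 (SE 0.10, limma adjusted p = 0.0053), 1.74-fold lower. The probe set 1423161_s_at averaged 22.0 ± 5.07 with the shRNA and 45.9 ± 11.2 with the control vector (SD, n = 5 each; log2 change -1.05, SE 0.18, adjusted p = 0.0187), and its groups overlapped, as shRNA sample 2 read 30.2 and control sample 5 read 29.2. Leaving out pair 1, 2, 3 or 4 ended its call (adjusted p = 0.0806, 0.0586, 0.0606 and 0.0539), while the other called Spred1 probe sets passed with each pair left out.

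**Figure D1:**
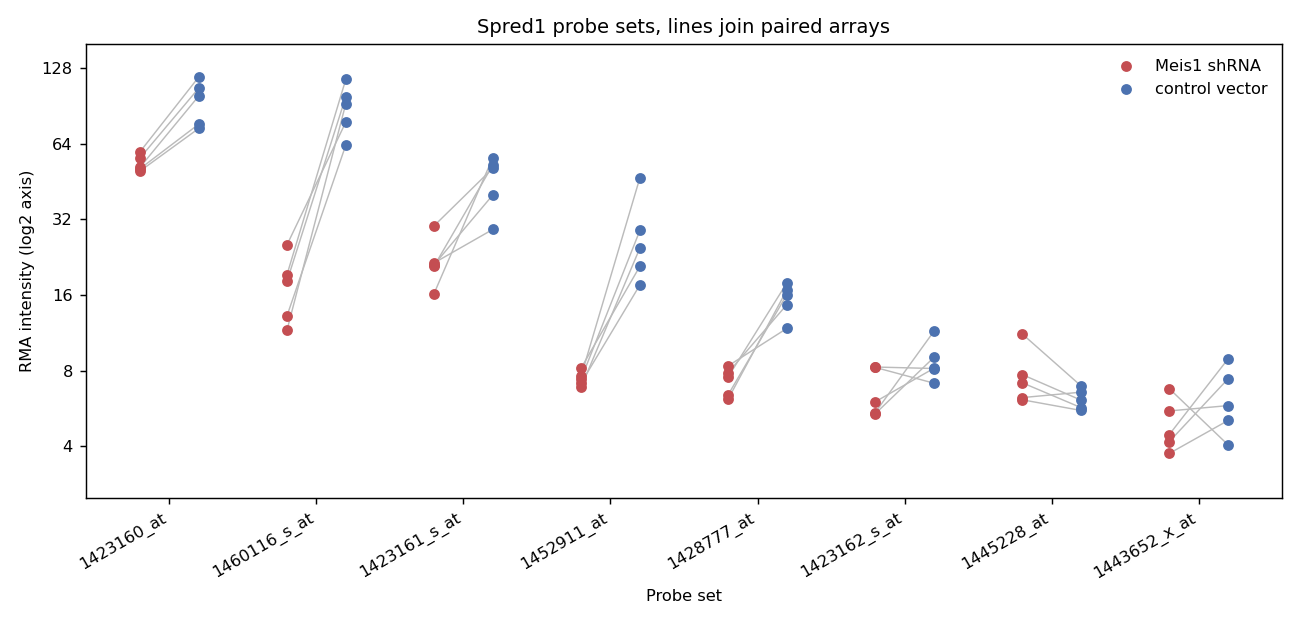
RMA intensity (log2 axis) of the 8 Spred1 probe sets on each array, with Meis1 shRNA arrays left and control vector arrays right of each position; grey lines join paired arrays. The 5 probe sets at the left were lower with the shRNA in all 5 pairs, while the 3 at the right lay near the array medians of 6.24 to 6.7 in both groups; heights of different probe sets are not comparable.

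The 3 Spred1 probe sets that did not pass were dim. The probe set 1423162_s_at read between 5.39 and 8.27 with the shRNA and between 7.13 and 11.5 with the control vector, with a change of -0.41 (95% interval -0.81 to -0.0045, adjusted p = 0.332). For 1443652_x_at the range was 3.75 to 6.79 with the shRNA and 4.05 to 8.91 with the control vector (-0.32, adjusted p = 0.591). The probe set 1445228_at had the opposite sign, at 6.13 to 11.2 with the shRNA and 5.56 to 6.96 with the control vector (0.28, adjusted p = 0.293). By the annotation the 8 probe sets were designed on 4 sequences, and those that share a sequence did not always move alike. The sequence behind 1460116_s_at also gave 1443652_x_at, while 1452911_at and 1428777_at, which share another, both fell. The suffixes _s_at and _x_at mark probes that can match other transcripts. As the mean over all its probe sets, Spred1 changed by -0.95 (limma adjusted p = 0.00174 over all genes), an alternative chosen after the data were seen.

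A measure of RNA integrity moved with the groups. The control probe sets for Gapdh and actin gave a log2 ratio of 3 prime over 5 prime signal of 0.369 ± 0.0219 with the shRNA and 0.279 ± 0.0618 with the control vector (SD, n = 5 each), higher with the shRNA in 5 of 5 pairs. When the ratio entered the paired fit as a covariate, 1460116_s_at changed by -2.31, 1452911_at by -1.11, 1428777_at by -0.76, 1423160_at by -0.63 and 1423161_s_at by -0.34. None of these passed in that fit (limma adjusted p = 0.186 to 0.937), which called 0 of all 45037 probe sets, with 2504 at an unadjusted p under 0.05. With the ratio the SE was 0.33 for 1460116_s_at (0.17 without it) and 0.18 for 1423160_at (0.10 without it). Because the ratio was higher with the shRNA in each pair, that fit cannot tell effects of RNA integrity and of the hairpin apart. The brightest probe sets of other members moved in both directions in that fit. Spry2 was at -0.87 (-0.41 without the ratio), Dusp1 at -0.43 (-0.10), Dusp2 at -0.23 (-0.43), Dusp5 at 0.07 (0.42), Dusp6 at 0.42 (0.27) and Spred2 at 0.15 (-0.00). No probe set of these genes passed with the ratio (lowest limma adjusted p = 0.828). In bulk RNA, fewer cells that express a gene and less RNA per cell cannot be told apart.

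Spred2, the relative of Spred1 that binds the same Ras GTPase activator, gave no detectable change on its bright probe set. The probe set 1434403_at read 279.7, 283.4, 267.0, 298.7 and 264.4 in shRNA samples 1 to 5, against 263.7, 315.1, 277.9, 332.4 and 218.9 in control samples 1 to 5. The shRNA values lay within the range of the controls. The change was -0.00, with a 95% interval of -0.22 to 0.22 (limma adjusted p = 0.997). The other 4 Spred2 probe sets changed by -0.12 to 0.22 and did not pass (lowest adjusted p = 0.369). Set against each other within pairs, the log2 change of the brightest Spred1 probe set lay below that of Spred2 (mean difference -0.80, SD 0.19, n = 5 pairs), with a difference below 0 in 5 of 5 pairs (exact two-sided sign-flip permutation test, p = 0.0625, the lowest that can be reached).

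The Sprouty genes gave little signal. Spry1, an inhibitor of receptor-driven Ras activation, read 3.64 to 4.58 with the shRNA and 3.525 to 3.98 with the control vector, within the range of the Trpn background controls, so no change of Spry1 could be measured here. Spry2, which also dampens receptor signals, was measurable on 1436584_at. That probe set read 22.8, 10.3, 23.95, 35.3 and 23.6 in shRNA samples 1 to 5, against 21.5, 25.5, 30.1, 34.6 and 33.5 in control samples 1 to 5. The shRNA array was lower in pairs 2, 3 and 5, most of all in pair 2, while pairs 1 and 4 differed by 0.08 and 0.03. The mean change was -0.41 (95% interval -0.83 to 0.01, limma adjusted p = 0.357). The dimmer Spry2 probe set, 1421656_at, changed by -0.17 (adjusted p = 0.474).

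**Figure D2:**
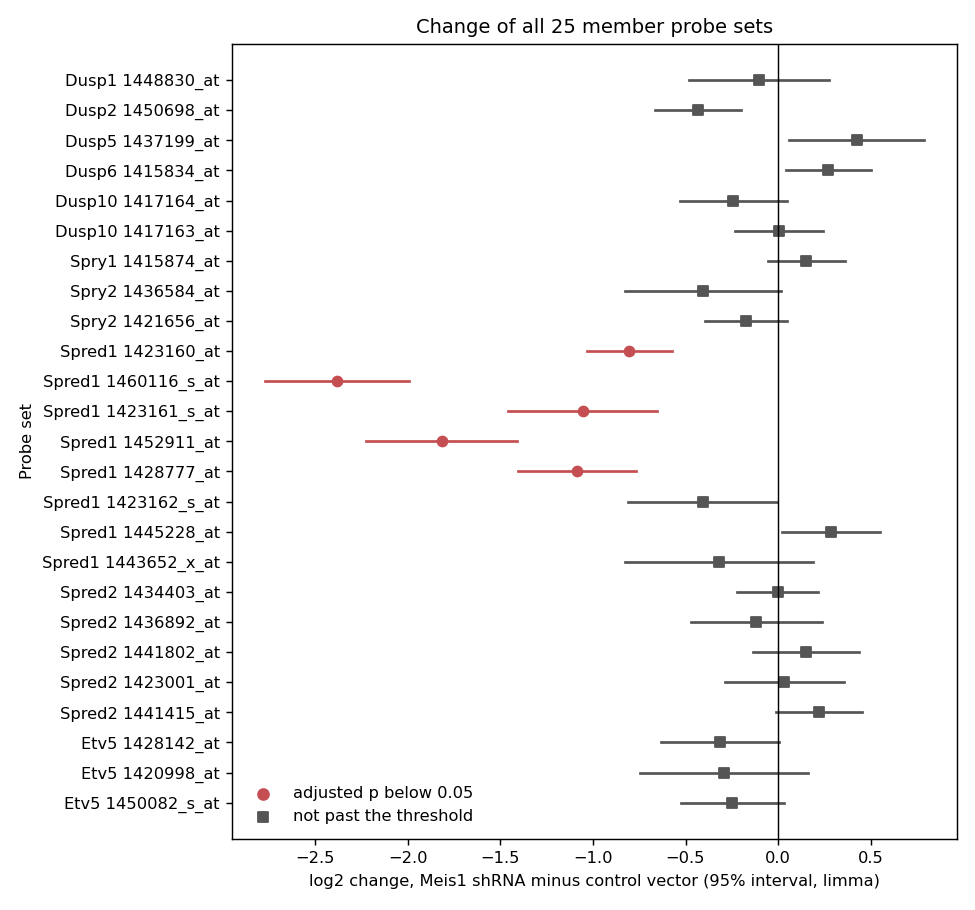
Log2 change (shRNA minus control) of all 25 member probe sets with the 95% interval of the paired limma fit; red circles had an adjusted p below 0.05 and grey squares did not. The 5 red circles are all Spred1, from -2.38 to -0.80, while the 17 probe sets of the other 9 genes lie between -0.43 and 0.42.

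Of the phosphatases none passed the test. Their changes had both signs: on the brightest probe sets, Dusp5 and Dusp6 lay above 0 and Dusp1, Dusp2 and Dusp10 below 0. Dusp6, the bright cytoplasmic phosphatase, read 195.2, 184.2, 188.7, 233.0 and 93.6 in shRNA samples 1 to 5, against 141.0, 173.6, 148.3, 230.2 and 69.4 in control samples 1 to 5. The shRNA array was the higher in 5 of 5 pairs, by 0.02 to 0.47 log2 units, and the groups overlapped, with pair 5 the lowest in each and control sample 4 above 4 of the 5 shRNA arrays. The change was 0.27 (SE 0.10, 95% interval 0.04 to 0.50, limma adjusted p = 0.246, unadjusted p = 0.0254).

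Dusp5 gave the largest positive change of the members. It read 31.9, 32.8, 27.9, 42.2 and 23.6 in shRNA samples 1 to 5 and 16.2, 20.8, 24.9, 28.7 and 27.7 in control samples 1 to 5. Pairs 1 to 4 were higher with the shRNA and pair 5 was lower. The change was 0.42 (SE 0.16, limma adjusted p = 0.256).

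Dusp2, the phosphatase of activated blood cells, came nearest to a call. It read 24.55, 22.95, 19.9, 20.5 and 22.9 in shRNA samples 1 to 5 and 34.5, 31.3, 22.1, 34.15 and 29.1 in control samples 1 to 5. The shRNA array was lower in 5 of 5 pairs, and the groups overlapped through control sample 3. The change was -0.43 (SE 0.10, limma adjusted p = 0.0684 over all probe sets). When the fit was run with 1 probe set per gene, where 4.06% of genes were called, the same change had an adjusted p of 0.0486. That refit changed both the tests and the estimates of spread. Dusp2 also passed in the limma fit of gene means (adjusted p = 0.0304). It did not pass with no replicate block (0.117), quantile normalization (0.138) or trend and robust eBayes (0.112), so its call depends on the setting.

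Dusp1 and Dusp10, which act mainly on p38 and JNK, were dim. Dusp1 read 17.0, 10.5, 13.7, 22.25 and 11.35 in shRNA samples 1 to 5, against 12.7, 19.5, 14.0, 20.1 and 12.7 in control samples 1 to 5, and pairs differed in both directions. Its change was -0.10 (95% interval -0.48 to 0.27, limma adjusted p = 0.847). The Dusp10 probe sets read 4.12 to 6.78 with the shRNA and 4.10 to 9.83 with the control vector, around the array medians, with changes of -0.24 on 1417164_at (adjusted p = 0.435) and 0.01 on 1417163_at (adjusted p = 0.991).

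Etv5, the ERK output marker of the list, was lower with the shRNA in 4 of 5 pairs on its bright probe set without passing. The probe set 1428142_at read 62.5, 35.0, 41.7, 51.6 and 28.7 in shRNA samples 1 to 5, against 52.0, 57.6, 57.8, 73.6 and 31.35 in control samples 1 to 5. Pair 1 went the other way, and pair 5 was the lowest in each group, as it was for Dusp6. The change was -0.31 (SE 0.14, 95% interval -0.63 to 0.005, limma adjusted p = 0.348). The dim probe sets 1420998_at and 1450082_s_at changed by -0.29 and -0.25 (adjusted p = 0.577 and 0.404). Across the members, then, Etv5 and Dusp6, both used as readouts of ERK activity, had changes of opposite sign, and neither passed.

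**Figure D3:**
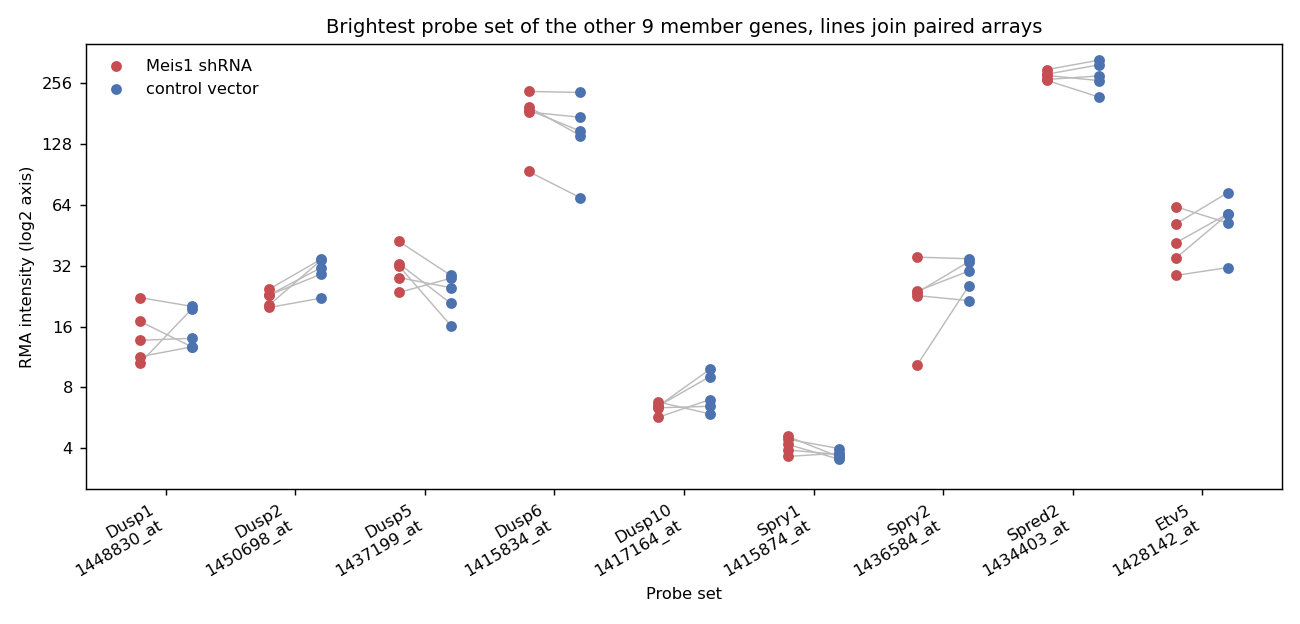
RMA intensity (log2 axis) of the brightest probe set of each of the other 9 member genes, with Meis1 shRNA arrays left and control vector arrays right; grey lines join paired arrays. The groups overlapped for each of the 9 genes, and Dusp6 (93.6 with the shRNA, 69.4 with the control vector) shows how far pair 5 lay below the rest; heights of different probe sets are not comparable.

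The groups of arrays did not overlap for 4 member probe sets, all of Spred1 and lower with the shRNA. Of all probe sets, 2.75% were lower with the shRNA without overlap. The 4 member probe sets report 1 gene. The genes whose profile over the 10 arrays was most like that of Spred1 were sought by the root mean square difference of centred log2 levels, for the brightest Spred1 probe set and among 6720 other genes with a mean log2 level above 5. They were Smim20 (0.08 log2 units), which encodes a small mitochondrial membrane protein, Fth1 (0.13), the ferritin heavy chain, and Tmem123 (0.13). These fell too, by 0.68, 0.90 and 0.88 on the log2 scale (limma adjusted p = 0.0118, 0.00109 and 0.00237), which the measure of likeness largely fixes.

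The rest of the pathway was read from 8 lists, each gene by its brightest probe set. Of 117 genes measured, 5 rose and 4 fell, or 7.69%, against 3.16% of all genes (0.813% higher and 2.34% lower), and the median change was 0.00. The listed genes and all genes were not matched for expression level. The lists were chosen with earlier results of these data known (Btg2 and Kit among them), so the excess is a description.

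Among the other MAP kinase phosphatases, 1 of 5 rose. It was Dusp16, a phosphatase that prefers JNK and p38, which averaged 28.0 ± 13.5 with the shRNA and 13.0 ± 4.89 with the control vector (SD, n = 5 each; log2 change 1.06, SE 0.12, limma adjusted p = 0.00333). It was higher in 5 of 5 pairs, by 0.67 to 1.31 log2 units. Its other probe set, 1440615_at, was dim and changed by 0.03. Dusp4, a close relative of Dusp1, lay near the array medians in each group (-0.00, adjusted p = 0.991). Of 10 other Sprouty, Spred and receptor-level inhibitors none passed, and Spry4 had the largest change, 0.36 (adjusted p = 0.212), at 6.55 to 8.60 with the shRNA and 4.62 to 6.58 with the control vector.

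Genes that ERK and stress signals induce rose in a few cases. Of 9 other ETS and ERK output genes 1 rose and 0 fell: Ier3, an early response gene, averaged 464 ± 110.0 with the shRNA and 331 ± 91.6 with the control vector (SD, n = 5 each; log2 change 0.50, limma adjusted p = 0.0284). Myc (-0.04), Ccnd1 (0.08) and Etv4 (-0.06), further genes downstream of ERK, did not pass. Of 20 immediate early genes 3 rose and 0 fell, with a median change of 0.16. They were Btg2, an antiproliferative p53 target (1.15, adjusted p = 0.00109), Jun, the AP-1 subunit (0.79, adjusted p = 0.0053), and Ier5 (0.46, adjusted p = 0.0324). The dimmer Ier5 probe sets, 1417613_at and 1460009_at, changed by -0.14 and 0.07 without passing (limma adjusted p = 0.629 and 0.868). Fos (0.32, adjusted p = 0.393) and Egr1 (-0.06, adjusted p = 0.834), classical targets of ERK, did not pass, and Egr1 read 5.24 at most with the shRNA and 5.06 with the control vector. Jun, like Dusp6 and Etv5, was lowest in pair 5, at 27.7 with the shRNA and 15.3 with the control vector.

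In the cascade itself 1 of 18 genes fell and 0 rose. Rps6ka3, which encodes the ERK-activated kinase RSK2, averaged 216 ± 84.7 with the shRNA and 440.3 ± 102.3 with the control vector (SD, n = 5 each; log2 change -1.10, SE 0.12, limma adjusted p = 0.00258), though its dimmer probe sets changed by -0.17 and -0.24 without passing. The MEK genes Map2k1 and Map2k2 each changed by -0.02. Of 21 exchange factors, adaptors and GTPase activators 1 fell: Rasgrp2, an exchange factor mainly for Rap1 (-0.64, adjusted p = 0.0143 on 1 of its 4 probe sets). Nf1, the partner of Spred proteins, was dim and changed by -0.01. Of 22 genes of the JNK and p38 cascades, the dim Map2k6, which activates p38, fell (-0.45, adjusted p = 0.048), and of 12 receptors Kit, the stem cell factor receptor upstream of Ras, fell (log2 change -0.78, adjusted p = 0.00237).

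**Figure D4:**
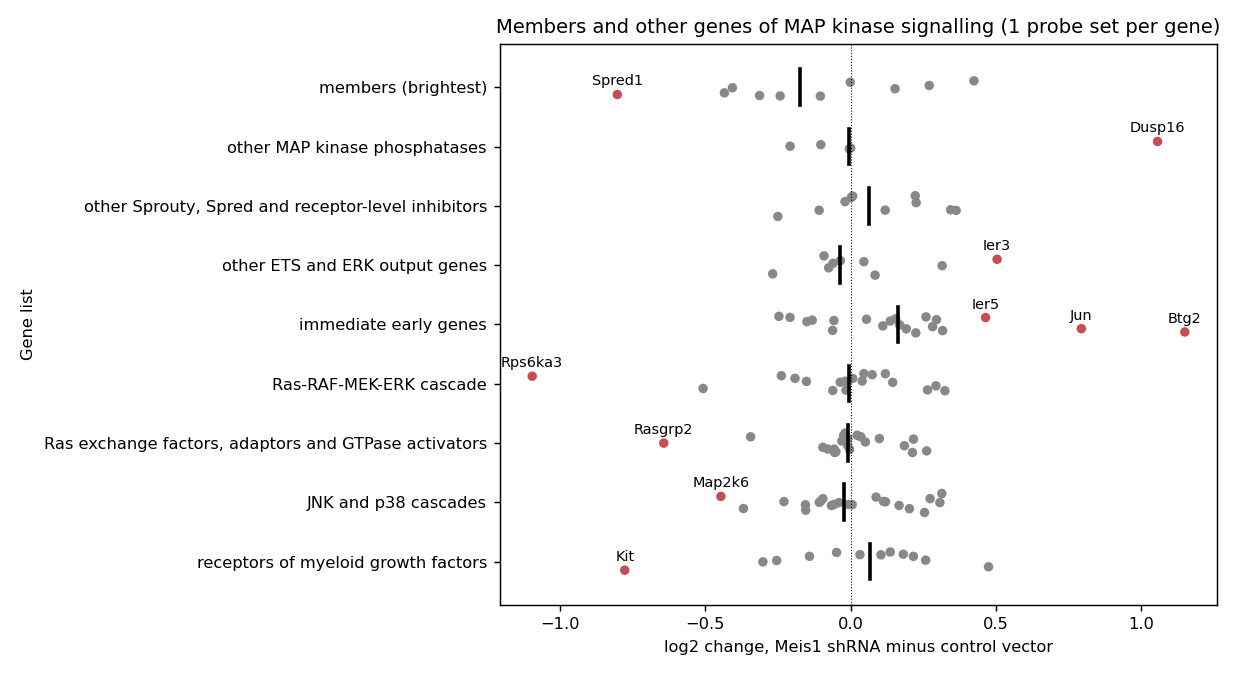
Log2 change (shRNA minus control) of the 10 members and of 117 other genes in 8 lists, 1 point per gene by its brightest probe set; red points had an adjusted p below 0.05 and bars mark the median of each list. Spred1 (-0.80), Rps6ka3 (-1.10), Kit (-0.78), Rasgrp2 (-0.64) and Map2k6 (-0.45) are red at the left, and Dusp16, Ier3, Ier5, Jun and Btg2 are red at the right.

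Several of these pathway calls rest on the pairing, while those of Spred1 do not. Without the replicate block the limma adjusted p was 0.0997 for Dusp16, 0.317 for Ier3, 0.56 for Jun, 0.08 for Ier5, 0.0527 for Rps6ka3, 0.35 for Map2k6 and 0.218 for Kit, but 9.31e-05 to 0.015 for the 5 called Spred1 probe sets. Ier3, Ier5, Rasgrp2 and Map2k6 also did not pass when pair 1, 2, 3 or 4 was left out (up to 0.108, 0.144, 0.0773 and 0.15). Markers of other cell types moved with the groups in a few cases: Adgre1 rose by 0.65 (adjusted p = 0.0275), 1 of 9 genes of macrophages and dendritic cells, and Pecam1 fell (log2 change -0.71, adjusted p = 0.0454), 1 of 8 genes of fibroblasts and endothelium. The summed intensity of the macrophage and dendritic list was 722.2 to 1035 with the shRNA and 556 to 932.5 with the control vector, and that of the fibroblast and endothelial list was 48.6 to 69.0 with the shRNA and 49.0 to 82.0 with the control vector. In the macrophage and dendritic list Adgre1 averaged 407 ± 129 with the shRNA and 273 ± 128 with the control vector, and Cd68, which did not pass, 415.5 ± 84.8 with the shRNA and 424 ± 69.0 with the control vector (SD, n = 5 each). Csf1r and Flt3 in that list averaged 14.15 and 19.2 with the shRNA, against 12.7 and 23.0 with the control vector, and the other 5 genes read at most 9.02 with the shRNA and 6.73 with the control vector. Apart from Pecam1, the fibroblast and endothelial genes read at most 9.01 with the shRNA and 7.95 with the control vector. The part of these cells in the changes of Spred1 and its pathway was not tested.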

How the data were processed

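RNA of 10 samples was biotin-labelled with the Affymetrix one-cycle kit and hybridised to 1 array each, per the labels' protocols. The deposited intensity values are on a linear scale (1.295 to 32400) and were made with RMA, per the submitters' processing notes. Neither its version nor its settings are given in the sources used here. RMA can compress large changes, and the number of arrays limits precision. Values were log2-transformed with no pseudocount. Of 45101 probe sets, 64 controls were left out. The platform annotation gave 34945 of the rest 1 symbol, 932 several and 9160 none, and all 10 members' gene identifiers matched RefSeq (GRCm38.p6).

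Groups were compared with limma 3.58.1 (R 4.3.3), lmFit and eBayes, two-sided, with pairs as a fixed block and Benjamini-Hochberg adjustment over all 45037 probe sets. The method was tested on simulated data with independent noise and added changes of known size. Those data held no difference in RNA integrity between the groups, so that test does not cover it. The pairing comes from the labels. Deviations of same-numbered samples correlated at 0.600, 0.462, 0.339, 0.310 and 0.557 for pairs 1 to 5 over 11215 probe sets, those with a mean log2 above 5. Control sample 2 correlated more with shRNA sample 1 (0.579) than with shRNA sample 2 (0.462). Other samples with different numbers correlated nearly as well as the pairs. The values were 0.428 for shRNA 2 with control 1, 0.276 for shRNA 3 with control 4 and 0.234 for shRNA 4 with control 3. Between samples 1 and 2 and samples 3 to 5 all correlations were negative (-0.47 to -0.18). The correlations thus set samples 1 and 2 apart from 3 to 5 more clearly than they set pair 1 apart from pair 2. By a different measure, limma's consensus estimate of the correlation within pairs over all 45037 probe sets, the value was 0.0801. A gene's brightest probe set is the one with the highest mean over all arrays. Named genes are all member and Meis1 probe sets, up to 3 called genes per direction and list, direct counterparts of members, and the 3 genes most like Spred1; Nf1, Myc, Ccnd1, Fos, Egr1, Map2k1, Map2k2 and the markers were added after their values were seen. Members, lists and tests were chosen with earlier results of these data known. Alternatives covered scaling, filtering, moderation, array weights, RNA integrity and each pair left out.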

Additional observations from a re-analysis of the deposited data

Results flagged for a closer look

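Of 74 groups of 5 arrays examined (member, Meis1 and called pathway probe sets in each group), 2 held an array far from the others. There the gap to the nearest array, over the range of the group, passed Dixon's 95% critical value. Gap and range were taken on log2 values, while the readings below are linear intensities. Chance alone would mark about 1 in 20 such groups. Dusp6 on 1415834_at read 93.6 in shRNA sample 5, against 184.2 to 233.0 in the other shRNA samples (ratio 0.742); its paired control was also the lowest of its group. Etv5 on the dim probe set 1420998_at read 18.5 in control sample 4, against 6.66 to 8.66 in the other controls (ratio 0.742).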

How the results depend on the processing

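The count of all called probe sets was 1116 (881 lower, 235 higher) and that of member probe sets 5 of 25. Over all probe sets it was 2040 among those with a mean log2 above 5 (fewer tests), 739 with 1 probe set per gene, 2309 with trend and robust eBayes, 33 without moderation of variances (5958 at an unadjusted p under 0.05) and 0 with the replicate block and the 3 prime to 5 prime ratio (2504), and 359 to 1674 with each pair left out. Of members, 2 of 5 were called with the brightness filter, both Spred1; 2 of 10 with 1 probe set per gene, Spred1 and Dusp2; 0 without moderation (7 at an unadjusted p under 0.05); 0 with the ratio (6); and 4 to 5 with each pair left out. Without moderation the lowest member adjusted p was 0.0909 (1460116_s_at). The cause was not tested. After quantile normalization calls split into 640 lower and 345 higher, 65.0% lower against 78.9%. With no replicate block 816 probe sets were called in all and the members' count was 5, so the pairing changed no member call. With a pseudocount of 16, 1423161_s_at did not pass (adjusted p = 0.0509). No sign of a called value reversed. Dim probe sets limit what can be seen of Spry1, Dusp10 and 3 of the Spred1 probe sets.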
